A study of Mus musculus with 5 samples.

Results

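The G1 cell cycle genes examined here were the D-type cyclins Ccnd1, Ccnd2 and Ccnd3, the E-type cyclins Ccne1 and Ccne2, the kinases Cdk4 and Cdk6, the CDK inhibitors Cdkn1a and Cdkn1b, and the transcription factor Meis1. These 10 genes were chosen by symbol, for their roles in entry into the cell cycle and in its arrest after birth, out of 49671 genes in the deposited count table. All 10 were among the 14880 genes that passed the filter of at least 10 counts in at least 2 pools. RNA was measured by poly(A) RNA-seq in whole hearts of C57BL6/J mice at postnatal day 2 (PN2), taken from littermates and pooled by genotype. Charme is a muscle long noncoding RNA, and its KO allele carries a PolyA signal inserted in the locus. The Charme WT group held 3 pools of 9 hearts and the Charme KO group 2 pools of 3 hearts, so that pool size and genotype cannot be told apart. The question asked of these genes was whether they moved with the G2/M genes, a list that was higher in Charme KO hearts.

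In G1, D-type cyclins bind CDK4 and CDK6 and phosphorylate the retinoblastoma proteins, which releases E2F factors to transcribe the genes of DNA replication. E-type cyclins then activate CDK2 and carry the cell into S phase, while the inhibitors p21 (Cdkn1a) and p27 (Cdkn1b) hold these kinases back. Mouse cardiomyocytes leave the cell cycle shortly after birth, and MEIS1 is a homeobox factor known to be needed for that exit, acting in part through CDK inhibitor genes.

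Promoter sequences are shown for the members in which a searched motif was found. RefSeq promoter windows on GRCm38.p6, from 250 bases before to 50 bases after a start site, were at hand for 7 of the 10 genes. Cdk4 is shown over the 190 bases before its start (chr10:127063345-127063534, plus strand), because this window held 4 copies of the E-box CACGTG, in capitals. Cdkn1a is shown around a match to the p53 response element (chr17:29090923-29090952, plus strand), in capitals. It starts 51 bases before the start site of its window. The window of the other Cdkn1a start site (chr17:29093519-29093818, plus strand) held no match. Cdk6 is shown around its single E-box (chr5:3343661-3343690, plus strand), in capitals.
Cdk4: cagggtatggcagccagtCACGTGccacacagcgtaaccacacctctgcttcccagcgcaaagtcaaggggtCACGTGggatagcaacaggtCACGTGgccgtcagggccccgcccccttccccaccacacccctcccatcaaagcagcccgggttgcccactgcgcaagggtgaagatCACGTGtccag
Cdkn1a: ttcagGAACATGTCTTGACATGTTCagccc
Cdk6: gttctgcggcccCACGTGggtgaacccccg

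The E-box is a palindrome known to bind MYC and related factors, and it occurred in 7.15% of all 32851 windows. Windows with at least 4 copies, as that of Cdk4, numbered 8, or 0.0244%. The p53 response element was searched as abutting half-sites with intact cores and at most 1 mismatch, and 18 windows (0.055%) held it. The mismatch was allowed after a search with 0 mismatches had found the element in 3 windows and in none of the 7 members. The E2F letters TTTCCCGC, TTTCGCGC, TTTGCCGC and TTTGGCGC, searched on both strands, were found in 2.27% of all windows and in 13 of the 31 S phase genes with a window. None of the 7 members with a window held them. The cell cycle homology region TTTGAA, also searched on both strands, was found in 17.9% of all windows, in 33 of the 47 G2/M genes with a window and in none of the 7 members. A match is a run of letters and not a shown binding site, and a missing match says only that these letters are not in this window. The motifs were chosen after the expression values had been seen, and overlaps between them were not removed.

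Depth ranged from 16721055 to 21646378 counts per pool. Charme itself was counted 810, 183 and 276 times in the Charme WT libraries and 57 and 79 times in the Charme KO libraries, a log2 fold change of -2.49 (SE 0.55, adjusted p = 0.0763 by edgeR's quasi-likelihood test, Benjamini-Hochberg adjusted over all genes tested). Both Charme KO libraries stood apart in other ways. Genes of the mitochondrial genome took 21.1% of the counts of Charme KO pool 1 against 9.68% to 11.1% in the other 4 pools, and 8 salivary gland genes took 2.56% of those of pool 2. Cardiomyocyte markers summed to 45373 to 56203 CPM in Charme WT pools and 51960 to 55627 CPM in Charme KO pools, with all 8 detected. The sum hides unlike values, with log2 fold changes from -0.65 (Myh6) to 0.87 (Myl7) and Myh7 at 0.68. The lowest adjusted p of these 8 genes was 0.180 (Myl7) by the quasi-likelihood test. Summed marker levels were higher in both Charme KO libraries than in any Charme WT library for erythroid genes (1614 to 2279 against 866 to 1251 CPM), epicardial and mesothelial genes (134 to 143 against 27.6 to 95.9 CPM), adipose genes (46.0 to 912 against 0.170 to 5.43 CPM) and salivary gland genes (326 to 24797 against 0.0485 to 0.202 CPM). They overlapped for the other 8 marker lists besides cardiomyocytes, and thymus and T cell markers stayed between 0.991 and 3.03 CPM in all 5 pools. The part of these differences in the results below was not tested. In whole hearts, fewer cells of a type and less RNA per cell cannot be told apart.

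None of the 10 G1 genes passed the test for genotype, which asked for an adjusted p under 0.1 by edgeR's quasi-likelihood test and, for 1 genotype or more, a mean level of 1 FPKM or higher. That call was made for 305 of the 14880 genes, or 2.05%, with 227 (1.53%) higher and 78 (0.524%) lower in Charme KO hearts. At an unadjusted p under 0.05 there were 4 members, Ccne1, Ccne2, Cdk4 and Cdkn1a, as there were 2767 of all genes tested (18.6%). In the same 4 genes both Charme KO pools exceeded all 3 Charme WT pools, a pattern seen in 17.8% of all genes. Cdk6 was the only member with both Charme KO pools below every Charme WT pool, which 18.2% of all genes showed. The median log2 fold change of the 10 members was -0.12, beside 0.02 over all genes tested. Its direction turned with the length and GC correction (0.095, and 0.074 with the replicate block) and without Charme KO pool 2 (0.011). By other tools, the likelihood ratio test of edgeR called 1 member (Cdkn1a) among 6.27% of all genes, and DESeq2 called 2 (Cdkn1a and Ccne2) among 7.54%.

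**Figure D1:**
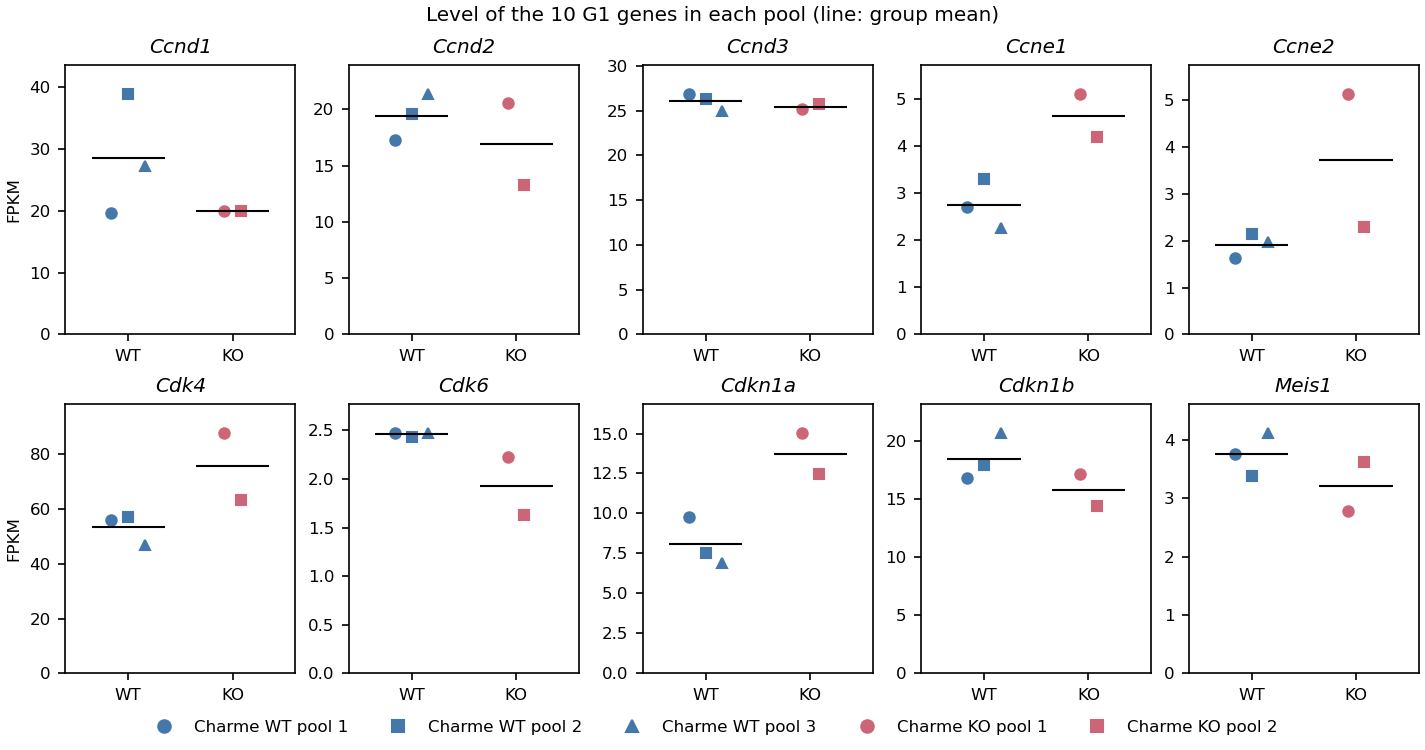
FPKM of each of the 10 genes (vertical axes, from 0) in the 3 Charme WT and 2 Charme KO pools, with a line at each group mean. Both Charme KO points stand above all Charme WT points for Ccne1, Ccne2, Cdk4 and Cdkn1a and below them for Cdk6, and the groups overlap for the other 5 genes.

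The levels that follow are FPKM, computed from the deposited counts with exon lengths of GENCODE M21 and TMM-scaled library sizes. Comparisons between genes, with family sums and shares, depend on these lengths, which join all annotated exons of a gene. In CPM, which uses no length, Ccnd3 (219 to 236 in Charme WT pools) was above Cdk4 (153 to 186) and Ccnd1 (92.7 to 183). By FPKM, Cdk4 was the most abundant member in Charme WT pools at 47.0 to 57.1. Ccnd1 (19.7 to 38.8) and Ccnd3 (25.0 to 26.8) came next and did not differ beyond their spread, and neither did the following pair, Ccnd2 (17.3 to 21.4) and Cdkn1b (16.8 to 20.7). Cdkn1a, at 6.90 to 9.78 FPKM, and Meis1, at 3.37 to 4.12 FPKM, each stood apart from their neighbours in this order. Ccne1 (2.26 to 3.29) and Cdk6 (2.44 to 2.47) overlapped, and Ccne2 was lowest at 1.62 to 2.14 FPKM.

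The D-type cyclins link growth signals to CDK4 and CDK6. Ccnd1 (chromosome 7, 144929931 to 144939925, GRCm38, minus strand) measured 19.7, 38.8 and 27.2 FPKM in Charme WT pools and 19.9 and 20.0 FPKM in Charme KO pools. Charme WT pool 2 was high, pool 1 was below both Charme KO pools, and the Charme WT pools spread far more widely than the others. The means were 28.6 ± 9.64 (SD, n = 3) and 20.0 ± 0.0456 (SD, n = 2), and the log2 fold change of -0.52 (SE 0.26, adjusted p = 0.316 by the quasi-likelihood test) was -0.23 without Charme WT pool 2.

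Ccnd2 (chromosome 6, 127125162 to 127152193, minus strand) was at 17.3, 19.6 and 21.4 FPKM in Charme WT pools against 20.6 and 13.3 FPKM in Charme KO pools. Charme KO pool 1 lay within the Charme WT range and pool 2 below it, so the groups overlapped. Its log2 fold change was -0.20 (SE 0.22, adjusted p = 0.642, same test), and it was 0.080 without Charme KO pool 2 and -0.55 without pool 1.

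Ccnd3 (chromosome 17, 47505051 to 47599691, plus strand) was the steadiest member, with 26.8, 26.3 and 25.0 FPKM in Charme WT pools and 25.2 and 25.7 FPKM in Charme KO pools. All 5 pools lay close together, and both Charme KO pools fell inside the Charme WT range. The log2 fold change was -0.03 (SE 0.16, adjusted p = 0.927), and a correction for gene length and GC content turned it to 0.34 (adjusted p = 0.329).

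Summed over the 3 D-type cyclins, the level was 63.8, 84.7 and 73.5 FPKM in Charme WT pools and 65.7 and 59.0 FPKM in Charme KO pools. Ccnd3 made up 31.1% to 42.1% of this sum in Charme WT pools and 38.3% and 43.6% in Charme KO pools, so the ranges overlapped. The share of Ccnd1 was 30.9% to 45.8% against 30.4% and 33.9%, and that of Ccnd2 was 23.1% to 29.0% against 31.4% and 22.5%. No ratio between these cyclins separated the genotypes. The log2 ratio in Charme KO minus Charme WT pools was -0.23 for Ccnd1 to Ccnd2 (p = 0.7), -0.19 for Ccnd2 to Ccnd3 (p = 0.6) and -0.43 for Ccnd1 to Ccnd3 (p = 0.4), each by an exact two-sided permutation test with a Benjamini-Hochberg adjusted p of 0.8 over 6 ratios. With 3 pools against 2, the smallest p this exact test can give is 0.1.

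The partner kinases Cdk4 and Cdk6, which both act with D-type cyclins, had unlike values. Cdk4 (chromosome 10, 127063534 to 127067920, plus strand) measured 56.1, 57.1 and 47.0 FPKM in Charme WT pools and 87.8 and 63.4 FPKM in Charme KO pools. Both Charme KO pools were higher than every Charme WT pool, pool 2 by a small margin. The means were 53.4 ± 5.55 (SD, n = 3) and 75.6 ± 17.3 (SD, n = 2), a log2 fold change of 0.50 (SE 0.20, adjusted p = 0.227). It was 0.71 without Charme KO pool 2 and 0.25 without pool 1. Cdk4 is overlapped on the other strand by Tspan31, as Ccnd1 is by LTO1, Ccnd3 by Bysl and Ccne2 by Ints8, from which the authors' strand-specific counting separates them.

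Cdk6 (chromosome 5, 3341485 to 3531008, plus strand) was at 2.47, 2.44 and 2.47 FPKM in Charme WT pools and 2.23 and 1.63 FPKM in Charme KO pools. The Charme WT pools were nearly equal and both Charme KO pools lower. The log2 fold change was -0.36 (SE 0.20, adjusted p = 0.370), -0.15 without Charme KO pool 2 and -0.60 without pool 1. The ratio of Cdk4 to Cdk6 in FPKM was 22.7, 23.4 and 19.0 in Charme WT pools and 39.4 and 39.0 in Charme KO pools. The Charme KO ratios were close to each other and above all the others. On the log2 scale the ratio differed by 0.86 between genotypes, which gave p = 0.1 by the exact permutation test, the smallest it allows, and 0.6 after adjustment over the 6 ratios.

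The E-type cyclins activate CDK2 at the entry into S phase. Ccne1 (chromosome 7, 38097984 to 38107534, minus strand) measured 2.70, 3.29 and 2.26 FPKM in Charme WT pools and 5.10 and 4.19 FPKM in Charme KO pools. Both Charme KO pools stood above the Charme WT range. The means were 2.75 ± 0.519 (SD, n = 3) and 4.65 ± 0.648 (SD, n = 2), a log2 fold change of 0.75 (SE 0.26, adjusted p = 0.190). This gene had 119 to 249 counts per pool, and its fold change stayed between 0.61 and 0.90 with any 1 pool left out.

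Ccne2 (chromosome 4, 11191351 to 11204779, plus strand) was at 1.62, 2.14 and 1.97 FPKM in Charme WT pools and 5.12 and 2.29 FPKM in Charme KO pools. Charme KO pool 1 was far above the others, and pool 2 was just above the highest Charme WT pool. The log2 fold change of 0.94 (SE 0.34, adjusted p = 0.200) was 1.42 without Charme KO pool 2, 0.27 without Charme KO pool 1 and 0.36 with the length and GC correction. The summed level of both E-type cyclins was 4.32, 5.43 and 4.23 FPKM in Charme WT pools and 10.2 and 6.48 FPKM in Charme KO pools, where pool 1 was highest. Both Charme KO sums exceeded every Charme WT sum, as for each of these cyclins alone and for 17.8% of all genes. The log2 ratio of Ccne1 to Ccne2 differed by -0.09 between genotypes, with p = 0.8 by the exact permutation test before and after adjustment.

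Cdkn1a encodes p21, an inhibitor of cyclin-CDK complexes and a target of p53. The gene (chromosome 17, 29090976 to 29100727, plus strand) measured 9.78, 7.51 and 6.90 FPKM in Charme WT pools and 15.0 and 12.4 FPKM in Charme KO pools. Both Charme KO pools were clear of the Charme WT range. The means were 8.06 ± 1.52 (SD, n = 3) and 13.7 ± 1.84 (SD, n = 2), and the log2 fold change was 0.77 (SE 0.21). Its adjusted p of 0.133 by the quasi-likelihood test was the lowest among the members. The likelihood ratio test gave an adjusted p of 0.0405, DESeq2 gave 0.0366, and the quasi-likelihood test with the length and GC correction gave 0.0884 at a log2 fold change of 0.95. The fold change was 0.63 to 0.93 with any 1 pool left out, and 0.76 when mitochondrial and salivary gland genes were taken out of the counts.

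Cdkn1b encodes p27, the related inhibitor. It (chromosome 6, 134920401 to 134925513, plus strand) was at 16.8, 17.9 and 20.7 FPKM in Charme WT pools and 17.2 and 14.4 FPKM in Charme KO pools. Charme KO pool 2 was the lowest of all, and pool 1 lay within the Charme WT range. The log2 fold change was -0.23 (SE 0.18, adjusted p = 0.517). In FPKM, the ratio of Cdkn1a to Cdkn1b was 0.581, 0.418 and 0.333 in Charme WT pools against 0.875 and 0.863 in Charme KO pools. The Charme KO ratios were nearly equal and higher than the rest, a separation seen in that direction in 17.8% of single genes. The difference of 1.003 on the log2 scale had p = 0.2 by the exact permutation test and 0.6 after adjustment.

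Meis1 (chromosome 11, 18879817 to 19018985, minus strand) measured 3.76, 3.37 and 4.12 FPKM in Charme WT pools and 2.78 and 3.62 FPKM in Charme KO pools. Charme KO pool 1 was the lowest, and pool 2 lay within the Charme WT range. The log2 fold change was -0.23 (SE 0.20, adjusted p = 0.559), -0.44 without Charme KO pool 2 and -0.05 without pool 1.

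**Figure D2:**
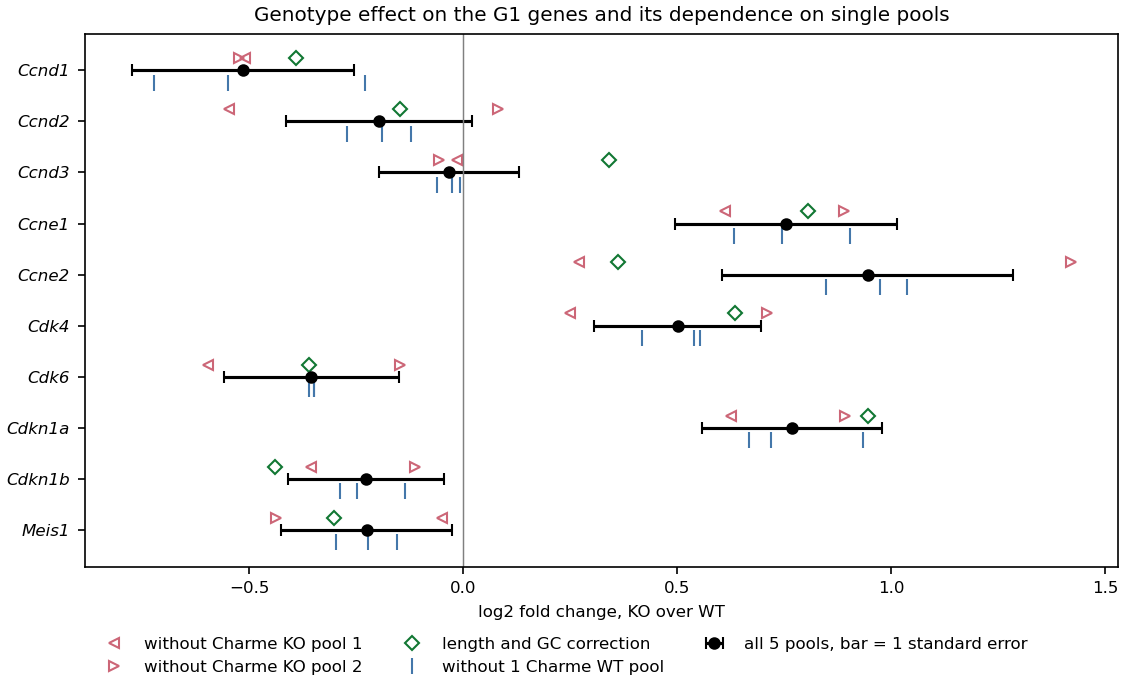
Log2 fold change, Charme KO over Charme WT, of each G1 gene over all 5 pools (black point, bar of 1 standard error), without 1 pool (triangles and ticks) and with the length and GC correction (diamond). Ccne1, Ccne2, Cdk4 and Cdkn1a stay above 0 in every setting drawn, Ccnd2 is above 0 without Charme KO pool 2, and Ccnd3 is above 0 with the correction.

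The number of members called depended on Charme KO pool 2. Without that pool 4 of the 10 genes passed the quasi-likelihood test, namely Ccne2 (log2 fold change 1.42, adjusted p = 0.00478), Cdkn1a (0.89, adjusted p = 0.0141), Cdk4 (0.71, adjusted p = 0.0143) and Ccne1 (0.89, adjusted p = 0.0402). In that fit 31.7% of all genes were called, against 2.05% with all pools, and its lone Charme KO library was assumed to vary like the Charme WT pools. Without Charme KO pool 1, no member passed among 4.33% of all genes, and the same 4 genes had log2 fold changes of 0.27 (Ccne2), 0.63 (Cdkn1a), 0.25 (Cdk4) and 0.61 (Ccne1). Charme KO pool 1 is the library with the high mitochondrial share, and Charme KO pool 2 the one with salivary gland and the most adipose RNA.

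The G2/M genes, which drive mitosis, were used as the yardstick. Of the 54 genes in the list 32 were called higher in Charme KO hearts and none lower, with a median log2 fold change of 1.30, where 1.53% of all genes were called higher. With the replicate block 27 were called (210 of all genes), and 7 with the block and the length and GC correction (47 of all genes). The list medians there were 1.18 and 1.03. Without Charme WT pool 1 or pool 3 none of the 54 was called (2 and 0 of all genes), although the list median was 1.30 and 1.19, and the number was 31 to 48 with any other pool left out. Relative to the Charme WT mean, the list median was 0.04, 0.30 and -0.27 on the log2 scale in Charme WT pools and 1.56 and 1.07 in Charme KO pools. The 43 S phase genes, Ccne2 among them, had 2 calls and a median log2 fold change of 0.64, with list medians of 0.93 and 0.20 in Charme KO pools 1 and 2. Their calls numbered 10 with the likelihood ratio test (6.27% of all genes) and 12 with DESeq2 (7.54%). With Charme KO pool 2 left out 32 were called higher and 1 lower (31.7% of all genes) at a median of 0.90, and with pool 1 left out 1 was called (4.33%) at a median of 0.17. None was called without Charme WT pool 1 or pool 3.

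**Figure D3:**
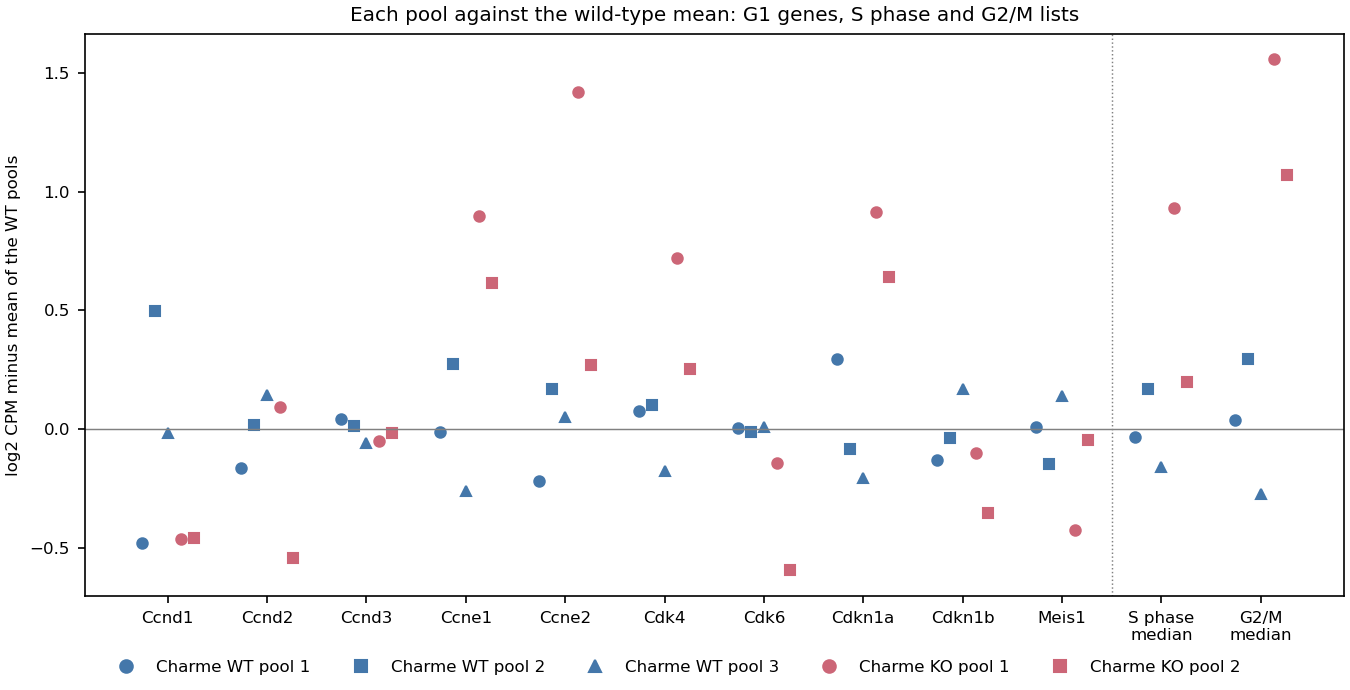
Log2 CPM of each G1 gene, and the median of the S phase and G2/M lists, as the difference from the mean of the Charme WT pools, 1 point per pool. The Charme KO pools lie at 1.56 and 1.07 for the G2/M list and at or below 0.91 for all members but Ccne2 in pool 1, which is at 1.42.

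To ask whether a member moved with the G2/M genes, the list median was subtracted from its log2 level in each pool. The Charme KO minus Charme WT difference in this quantity was below 0 for all 10 members, as for 97.7% of all genes tested, and for 9 of them both Charme KO pools lay below every Charme WT pool, as for 86.2% of all genes. The members' count was near that share and says nothing particular to them, and the median difference over all genes was -1.29. The list's own Charme KO minus Charme WT difference, 1.30, entered every value, so the order of the members is that of their own differences. Members whose own difference was near or below 0 were therefore farthest from the list. They were at -1.76 for Ccnd1, -1.66 for Cdk6, -1.53 for Meis1, -1.52 for Ccnd2 and for Cdkn1b, and -1.33 for Ccnd3. Each had p = 0.1 by the exact two-sided permutation test, the smallest it can give, and 0.125 after adjustment over the 10 members. Cdk4, at -0.81, and Ccne1, at -0.54, had the same p-values in the exact test. Cdkn1a differed by -0.52 with an exact permutation p of 0.2, adjusted 0.222. These p-values take in the rise of the list itself and do not test the members apart from it.

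Only in Ccne2 did the pools of the genotypes overlap by this measure. Since 86.2% and not all genes were separated, 1 such member among 10 is not particular to the set. Relative to the G2/M median Ccne2 was at -0.26, -0.13 and 0.33 on the log2 scale in Charme WT pools and at -0.14 and -0.80 in Charme KO pools. Charme KO pool 1 therefore lay within the Charme WT range and pool 2 below it. The difference of -0.45 had p = 0.4 by the exact permutation test, and it was -0.12 without Charme KO pool 2 and -0.78 without pool 1. These 10 differences share 1 list median per pool and are not independent of each other.

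Other genes of the G1 network were taken from fixed lists, in which none passed the quasi-likelihood test at its main settings. With the length and GC correction that test called 2 other CDK inhibitors higher and 1 p53 target lower, among 375 of all genes. With upper-quartile scaling it called 1 of the other kinases and activators and 1 ubiquitin ligase gene, both higher, among 296 of all genes. The other CDK inhibitors had the highest median of these lists, 0.78 over the 4 of 5 genes tested, beside 0.02 over all genes. Cdkn1c, which encodes p57, had log2 levels relative to the Charme WT mean of 0.08, 0.10 and -0.18 in Charme WT pools and 0.38 and 1.14 in Charme KO pools. Both Charme KO pools were higher, pool 2 the more so, and its log2 fold change was 0.81 (SE 0.23, adjusted p = 0.140). Cdkn2d, encoding p19, an inhibitor of CDK4 and CDK6, was at -0.06, 0.27 and -0.21 against 1.24 and 0.46, with a fold change of 0.89 (SE 0.25, adjusted p = 0.138). Here pool 1 was the higher one.

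Cdkn2c, encoding p18 of the same INK4 family and named after its values were seen, was at -0.10, 0.23 and -0.12 against 0.68 and 0.83, with a log2 fold change of 0.75 (SE 0.19, adjusted p = 0.115). Both Charme KO pools were alike and above the others. Cdkn2b was near the filter with 1 to 14 counts per pool (log2 fold change 0.21, SE 0.78), and Cdkn2a was not tested, with at most 3 counts in any pool. Of the 4 tested inhibitors, the quasi-likelihood test at its main settings called none, DESeq2 called 3 (among 7.54% of all genes) and the likelihood ratio test 3 (among 6.27%). Removing 1 Charme KO library gave a median log2 fold change for the 4 genes of 0.74 (pool 1 removed) or 0.52 (pool 2 removed).

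Among 8 other kinases and activators, Cks1b, a CDK-binding subunit that helps degrade p27 and is also in the G2/M list, had log2 levels of -0.04, 0.31 and -0.28 in Charme WT pools and 1.07 and 0.74 in Charme KO pools. Its log2 fold change of 0.89 (SE 0.22) had an adjusted p of 0.101. The most abundant other gene of this list was Cdk7, the CDK-activating kinase, at 0.17 (SE 0.19, adjusted p = 0.647), and the 8 genes ranged from -0.09 to 0.89. The 8 pocket proteins and DREAM subunits ranged from -0.48 to 0.48. Their most abundant gene Rbbp4 was at 0.31 (adjusted p = 0.390) and Lin37 at -0.17 (adjusted p = 0.784). The lowest was Rbl2, which encodes the pocket protein p130 of quiescent cells and was named after its values were seen, at -0.48 (SE 0.21, adjusted p = 0.256) with both Charme KO pools below every Charme WT pool.

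The 10 E2F factors and partners ranged from -0.18 to 0.64 in log2 fold change. In none did both Charme KO pools exceed all 3 Charme WT pools (17.8% of all genes). Both lay below in 1 of the 10, E2f6 (18.2% of all genes), which was named after its values were seen and was at -0.13 (adjusted p = 0.705). E2f4, mostly a repressor, was at -0.18 (adjusted p = 0.708) and its dimer partner Tfdp1 at 0.15 (adjusted p = 0.704). Of 8 genes of G1 ubiquitin ligases, Fbxo5, the inhibitor of the anaphase-promoting complex, was highest at 0.98 (SE 0.24, adjusted p = 0.102). It measured -0.21, 0.07 and 0.14 in Charme WT pools against 1.09 and 0.87 in Charme KO pools, with no overlap. Skp1a was at 0.35 (adjusted p = 0.345), and Ambra1, an adaptor in the degradation of D-type cyclins named after its values were seen, was lowest at -0.65 (SE 0.26, adjusted p = 0.236).

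Cdkn1a was compared with p53 and 14 of its other targets, of which none had both Charme KO values above all Charme WT values (17.8% of all genes) and 3 had both below (18.2% of all genes). These 3 were Gadd45a and, named after their values were seen, Mdm2 and Plk2. The median log2 fold change of these 15 genes was -0.03, close to 0.02 over all genes. Gadd45a, a stress-induced growth arrest gene, was at -0.22, 0.11 and 0.11 in Charme WT pools and -1.05 and -0.93 in Charme KO pools. Both Charme KO pools were lower, and its log2 fold change was -1.01 (SE 0.28, adjusted p = 0.137). The most abundant of the list, Ccng1, was at 0.45 (SE 0.32, adjusted p = 0.465). For MEIS1, 8 of 10 partners and relatives were tested, with a median of -0.15 and a range from -0.39 to 0.23. The DNA-binding partner Pbx2 was at -0.39 (SE 0.21, adjusted p = 0.348), and Hoxb13 had 0 counts in all 5 pools.

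**Figure D4:**
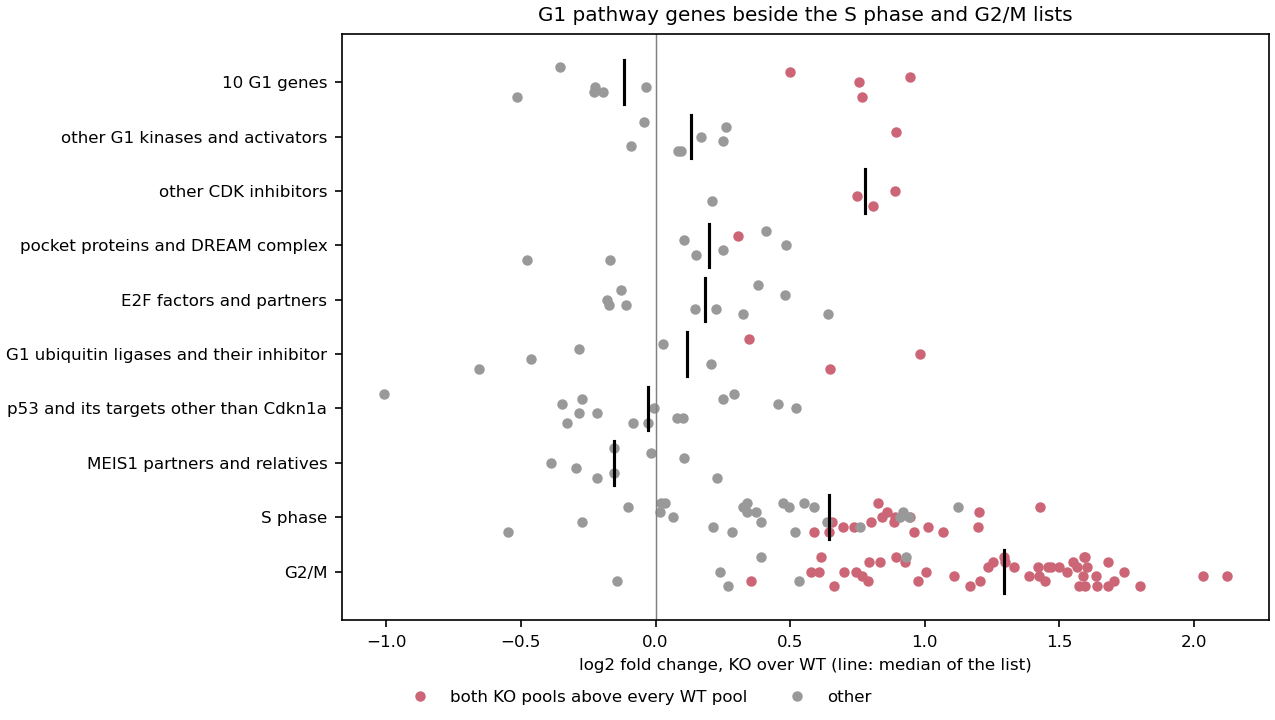
Log2 fold change, Charme KO over Charme WT, of every tested gene in each list (1 point per gene, red where both Charme KO values exceeded all Charme WT values), with a line at the list median. The medians are 1.30 for G2/M, 0.78 for other CDK inhibitors, 0.64 for S phase and between -0.15 and 0.20 for the remaining lists.

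For 8 of the members, the genes of the other lists with the most similar profile over the 5 pools were found by the root mean square distance between centred log2 CPM values, among 155 candidates. The distance is small for any pair of genes that vary little, and with 5 pools of 2 genotypes it describes these libraries only. Ccne1 was closest to Jpt1 (0.0503) of the G2/M list and Chaf1b (0.0619) of the S phase list. Ccne2 was closest to the S phase genes Hells (0.105) and Atad2 (0.152). Cdk4 was closest to Tmpo (0.0734) and Mcm7 (0.0783), of the G2/M and S phase lists. The neighbours of these 3 members all came from the S phase and G2/M lists. With 43 and 54 genes, these lists held most of the 155 candidates, so this is not particular to the 3 members.

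Cdkn1a was closest to Rad51ap1 (0.140) and Psrc1 (0.161), of the S phase and G2/M lists, and none of the 15 genes of its p53 list came nearer. Meis1 was closest to its relative Meis2 (0.0939), followed by Ctcf (0.0963). Among the steady genes, Ccnd3 was closest to Aen (0.0460) and Mdm2 (0.0570), and Cdkn1b to Tfdp2 (0.0993) and Plk2 (0.117). Ccnd1, whose values were the most scattered among Charme WT pools, had the most distant neighbours, Zmat3 (0.175) and Ung (0.232).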

How the data were processed

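RNA-seq reads of 150 nucleotides were trimmed by the authors, aligned to GRCm38 with STAR and counted on genes of Ensembl release 87 with regard to strand. The deposited counts are raw whole numbers per gene and pool, with Charme listed by name. A deposited FPKM table was not used here. FPKM were instead derived from the counts with union exon lengths of GENCODE M21, to which 49411 genes matched. The 23 tested genes without a length were given 1 kb. The software was edgeR 4.0.16 and DESeq2 1.42.0, with limma 3.58.1, under R 4.3.3. A gene entered the test with a minimum of 10 counts in 2 or more pools, and counts were scaled by TMM and tested for genotype with edgeR's quasi-likelihood test in its newer form, with Benjamini-Hochberg adjustment. The sample set and thresholds follow the study's methods, which use the likelihood ratio test, and their wording of the count filter can also be read as stricter than the filter used here. Each fold change compares Charme KO with Charme WT, and dividing its size by the square root of F gave the standard error. Single values were compared by exact permutation over the 10 assignments of pools, on log2 CPM with a prior count of 2.

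The members and lists were chosen with earlier results of these data known. Genes named beside the members were those of each list that were called, or that had a log2 fold change of at least 0.8 in size and no overlap between genotypes, filled to 2 with the most abundant, plus the 2 nearest profiles of each member. Some genes that this rule selects, among them the nearest profiles of Ccnd2 and Cdk6, are not reported here. The S phase and G2/M lists are those of Seurat in mouse symbols. The alternatives tried were DESeq2, the likelihood ratio test, robust and legacy quasi-likelihood tests, upper-quartile and RLE scaling, filterByExpr, no count filter, a stricter threshold of 0.05, no FPKM filter, the replicate block, a per-pool spline of 4 degrees of freedom on gene length and GC content, the block with that spline, the removal of mitochondrial and salivary gland genes, a prior count of 0.5, and each pool left out. The scripts were tested on simulated counts. Both the number of pools and the depth limit precision, and p-values set a difference against the spread between pools of littermates. The fit gave each gene 1 dispersion for both genotypes, although Charme WT pools held 9 hearts and Charme KO pools 3. Promoter sequences are from RefSeq.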

Additional observations from a re-analysis of the deposited data

How the results depend on the processing

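The log2 fold changes of the 10 members were set against all alternatives but the threshold of 0.05, no FPKM filter and the prior count of 0.5. They had the same direction and the same side of the threshold in 159 values, passed the threshold in 8 and reversed in 3. The reversed values were Ccnd2 without Charme KO pool 2 (0.080, from -0.55 to 0.080 with 1 pool left out) and Ccnd3 with the length and GC correction (0.34) and with that correction and the replicate block (0.28). The number of members called, 0 of 10 with all pools, was 1 with the likelihood ratio test, 2 with DESeq2, 1 with the length and GC correction, and 0 to 4 with 1 pool left out, where only the fit without Charme KO pool 2 called any. The number of genes called, 305, was 933 with the likelihood ratio test, 1122 with DESeq2, 111 at an adjusted p under 0.05 and 47 with the block and the correction. With edgeR's quasi-likelihood test it ranged from 0 to 4606 with 1 pool left out. The values were 2, 187 and 0 when Charme WT pools 1, 2 and 3 were removed in turn and 639 and 4606 when Charme KO pools 1 and 2 were, and the cause was not tested.

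Some ratios with no call also changed sign: Ccnd1 to Ccnd2 (-0.56 to 0.085 with 1 pool left out, 0.0044 without Charme WT pool 2), Ccnd2 to Ccnd3 (-0.53 to 0.14) and Ccne1 to Ccne2 (-0.52 to 0.35, 0.02 without Charme WT pool 1). The ends of these ranges came from leaving out Charme KO pool 1 or pool 2. The replicate numbers were not taken as pairs, since only 2 are shared. The deviations of same-numbered pools had correlations of 0.137 and 0.0778, and those of other combinations ranged from -0.137 to 0.0587. With 2 Charme KO pools, whose deviations mirror each other, these values cannot decide whether the pools are paired. With the replicate block 210 genes and 0 members were called, and Cdkn1a was at 0.67 (adjusted p = 0.209 by edgeR's quasi-likelihood test). With 2 Charme KO pools, changes of the size seen in the members may be missed, and a missing call does not show an equal level.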
